A study of Homo sapiens with 6 samples.

Results

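The large ribosomal subunit protein genes were taken by symbol, as names that start with RPL and go on with P0, P1, P2 or a number and at most a letter and further digits, with pseudogenes left out. They numbered 51 of 33739 genes in the deposited tables. RPL36AL, whose protein also belongs to the large subunit, is not taken by this rule. The annotation in the files put all 51 genes among structural constituents of the ribosome and 50 in the cytosolic large subunit, with RPL22L1 as the exception. It put 49 in the ribosome pathway, with RPL7L1 and RPL39L as exceptions. The genes lay on 18 chromosomes, with 8 on chromosome 3 and 6 on chromosome 17.

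The libraries were made from Kasumi-1 cells, a standard line grown from acute myeloid leukaemia and labelled wild type, kept for 24 hours in 100 uM CoCl2 with 10 nM echinomycin. CoCl2 mimics hypoxia by stabilising the transcription factor HIF-1, and echinomycin keeps HIF-1 off its DNA sites. Messenger RNA fragments carrying N6-methyladenosine (m6A), a methyl mark on adenosine, were pulled down with an antibody (IP) and sequenced beside the fragments before the pulldown (input), giving 3 IP and 3 input libraries. The labels call the replicates biological, and all come from 1 line. A deposited comparison sets the combined treatment against CoCl2 alone, whose own libraries are not analysed here. Every fold change below is the combined treatment over CoCl2, a direction taken from the deposited table's name and not stated in the labels.

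Of 10 myeloblast markers, 7 reached 1 FPKM (fragments per length of transcript, scaled to the library's mapped total), with sums over the list from 129 to 139 FPKM per input library, and the granule genes ELANE, PRTN3 and AZU1 did not. Of 9 markers of other blood lineages, 7 were in the table and 2 reached 1 FPKM, CD3D at 32.1 ± 2.30 FPKM and ITGA2B at 1.48 ± 0.195 FPKM (SD, n = 3). The sequencing depth is unknown from FPKM values.

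The large subunit of the cytosolic ribosome holds the catalytic centre that joins amino acids, the tunnel through which the new chain leaves, and a flexible stalk that recruits translation factors. Its protein genes are among the most highly expressed genes of dividing cells and are made in matched amounts. Most of their messenger RNAs begin with a 5′ terminal oligopyrimidine (TOP) tract, a C followed by a run of C and T, through which the mTOR pathway and the binding protein LARP1 control their translation. m6A is laid down in the nucleus by a complex around METTL3 and METTL14, most densely in long internal exons and near stop codons, and ribosomal protein messages are known as weakly methylated.

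The transcript starts of these genes are shown because their pyrimidine tract is a feature that the gene names did not select. RefSeq starts (GRCh38.p14) were matched by symbol for 41 of the 51 genes. In 29 of the 41 (70.7%) at least 1 start had a C as its first base within an unbroken run of 5 or more C or T from that base, against 5.14% of 27305 genes with a start in the table. The same held for 70.4% of 27 small ribosomal subunit genes, for 8.70% of 69 mitochondrial ribosomal protein genes, and for 24.4% of 78 other genes with an input level of 100 FPKM or more. Where the run could begin up to 5 bases to either side of the annotated start, 34 of the 41 genes (82.9%) and 25.2% of all genes had one. The tract was searched on the transcribed strand only. A match describes these letters and is no measure of translation.

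In the sequences below, capitals mark the run of C and T from its first C within 5 bases of the start. Capitals stop at the window's edge even where the run may go on. C or T directly before the capitals, as in RPL7A and RPL26, is left in small letters. The 30 bases around 1 start of selected genes follow, 15 on each side, 5′ to 3′. They comprise abundant members with a tract, both genes of a pair in which each has one (RPL22 and RPL22L1), and both genes of a pair in which 1 has none (RPL26 and RPL26L1), besides RPL7L1, which has none.
RPL41, chr12:56116618-56116647, plus strand: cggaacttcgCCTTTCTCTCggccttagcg
RPLP0, chr12:120201097-120201126, minus strand: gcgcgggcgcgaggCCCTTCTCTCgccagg
RPL7A, chr9:133348203-133348232, plus strand: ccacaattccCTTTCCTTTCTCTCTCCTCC
RPL39, chrX:119791616-119791645, minus strand: ttcttccgccagCTTCCCTCCTCTTCCTTT
RPL22, chr1:6199581-6199610, minus strand: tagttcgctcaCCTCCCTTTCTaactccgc
RPL22L1, chr3:170870181-170870210, minus strand: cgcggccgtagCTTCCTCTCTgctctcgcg
RPL26, chr17:8383179-8383208, minus strand: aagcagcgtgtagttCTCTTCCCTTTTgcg
RPL26L1, chr5:172958714-172958743, plus strand: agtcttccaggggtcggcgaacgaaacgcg
RPL7L1, chr6:42879601-42879630, plus strand: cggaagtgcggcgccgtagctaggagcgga

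The share of C or T at the first transcribed base was 66.7% over the 54 starts of the large subunit genes and 21.9% over all other starts. At the sixth base it was 81.5% and 54.9%. The 7 genes without a tract within 5 bases of a start were RPL6, RPL7L1, RPL9, RPL15, RPL17, RPL26L1 and RPL27. Some of them, such as RPL9 and RPL17, had a run of C and T farther off in the window. Their place in this group depends on the annotated start used.

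**Figure D1:**
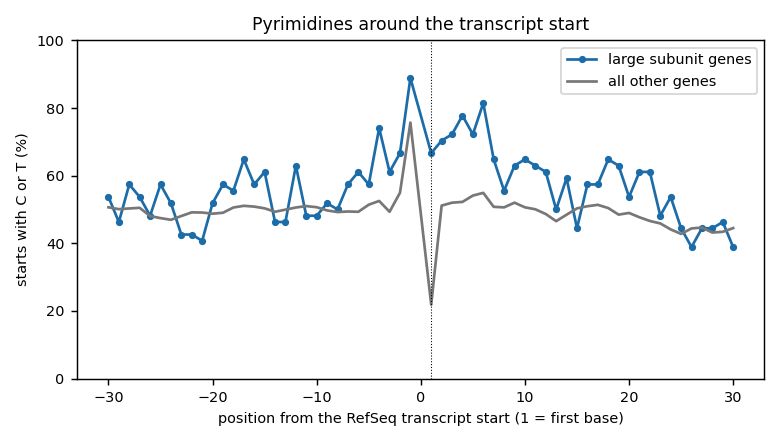
The share of RefSeq transcript starts with a C or T at each position, from 30 bases before to 30 bases after the start, for large subunit genes (points and line, 54 starts) and all other genes (plain line). At the first transcribed base the large subunit genes stand at 66.7%, and the other genes dip to 21.9%.

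The large subunit genes were among the most abundant transcripts of the input. Their levels summed to 23206, 23474 and 24289 FPKM in libraries 1, 2 and 3, which is 11.5% ± 0.206 (SD, n = 3) of the summed FPKM of all genes. The 33 small subunit genes held 8.77% ± 0.274 (SD, n = 3). Of the 51 genes, 50 reached a mean of 1 FPKM, the limit used here for an expressed gene, and their median was 426 FPKM, against 5.36 FPKM over 12612 expressed genes. FPKM is per length, so levels can be set against each other. In bulk samples, fewer cells with a transcript and less transcript per cell cannot be told apart.

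RPL41, the shortest ribosomal protein and part of a bridge between the subunits, had 1475, 1520.0 and 1524 FPKM in the 3 input libraries and was the highest member. It ranked sixth among all genes by mean level, above RPL19, a protein at the tunnel mouth, with 1342, 1338 and 1398 FPKM. The ranges of this pair did not overlap. RPL13A, a large subunit protein also known from an interferon-induced translation control complex, averaged 1225 ± 23.4 FPKM (SD, n = 3) and could not be told apart from RPLP0 at 1225 ± 39.0 FPKM (SD, n = 3). RPL8, which lies near the peptidyl transferase centre, averaged 1103 ± 18.7 FPKM (SD, n = 3) and followed below both.

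The stalk genes differed in level from one another. RPLP0, the anchor of the stalk, had 1203, 1203 and 1270.3 FPKM in the input libraries. RPLP1 had 755, 792 and 842 FPKM and RPLP2 had 653, 668 and 709 FPKM, the proteins of both forming dimers on the anchor. No values of these 3 genes overlapped. RPL12, at the base of the stalk, had 534, 546 and 538 FPKM and lay below all of them.

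Genes of the 5S ribonucleoprotein, whose proteins bind 5S ribosomal RNA and inhibit MDM2 when ribosome assembly is disturbed, were at 521 ± 13.7 FPKM for RPL11 and 358 ± 19.6 FPKM for RPL5 (SD, n = 3 each). RPL5 had 349, 344 and 380.2 FPKM in the 3 libraries, and library 3 was the high one. Near the peptidyl transferase centre, RPL3 averaged 607 ± 23.7 FPKM and RPL10, which is loaded late in assembly, 444 ± 22.5 FPKM (SD, n = 3 each). In the exit tunnel, RPL4 averaged 688 ± 28.2 FPKM, RPL39 595 ± 19.8 FPKM and RPL17 493 ± 17.0 FPKM (SD, n = 3 each). At the tunnel mouth the range ran from 172 FPKM for RPL31 to 1360 FPKM for RPL19, with RPL23A at 549 FPKM, RPL35 at 534 FPKM and RPL26 at 427 FPKM. The 27 remaining core genes ranged from 99.6 FPKM for RPL34 to 1225 FPKM for RPL13A, with a median of 312 FPKM.

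Genes named after another member formed a separate low group. RPL7L1, the relative of an assembly factor known from yeast, had 33.4, 34.8 and 34.0 FPKM, which was 7.26% ± 0.256 of RPL7 (SD, n = 3). RPL22L1 had 6.82, 7.54 and 8.43 FPKM, or 4.24% ± 0.448 of RPL22 (SD, n = 3), an RNA-binding member lost in some T-cell leukaemias. RPL26L1 had 12.6, 13.1 and 11.6 FPKM, or 2.92% ± 0.225 of RPL26 (SD, n = 3). RPL39L, known from testis, had 9.43, 10.7 and 8.53 FPKM, or 1.61% ± 0.228 of RPL39 (SD, n = 3). The muscle paralog RPL3L had 0.0168, 0.0537 and 0.0194 FPKM, and was the 1 member under the expression limit. Library by library, all 5 stood below the lowest of the other 46 genes, RPL34.

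The replicates were close. The coefficient of variation over the 3 input libraries had a median of 2.95% over the 50 expressed members and of 6.06% over all expressed genes. Library 3 was the highest in 40 of 50 members (80%), against 26.6% of all expressed genes, and the median member stood there at 1.03 of its mean over the libraries. Library 1 was the lowest in 33 of 50 members, against 4543 of 12612 expressed genes. The median SD of log2(FPKM + 1) over the members was 0.0423 with all libraries and 0.0191 without library 3.

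Reads of these genes can be shared with their processed pseudogenes. The table held 356 RPL pseudogenes, of which 84 reached 1 FPKM, with 5051 ± 218 FPKM in sum (SD, n = 3) and a maximum of 485 FPKM for RPL21P75. RPL21 itself averaged 209 ± 2.60 FPKM (SD, n = 3). The readthrough gene RPL36A-HNRNPH2 had 30.9, 57.1 and 89.8 FPKM and shares exons with RPL36A, at 208 ± 6.28 FPKM (SD, n = 3). The sources used here do not say how such reads were assigned, so levels of single members are uncertain to that extent.

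**Figure D2:**
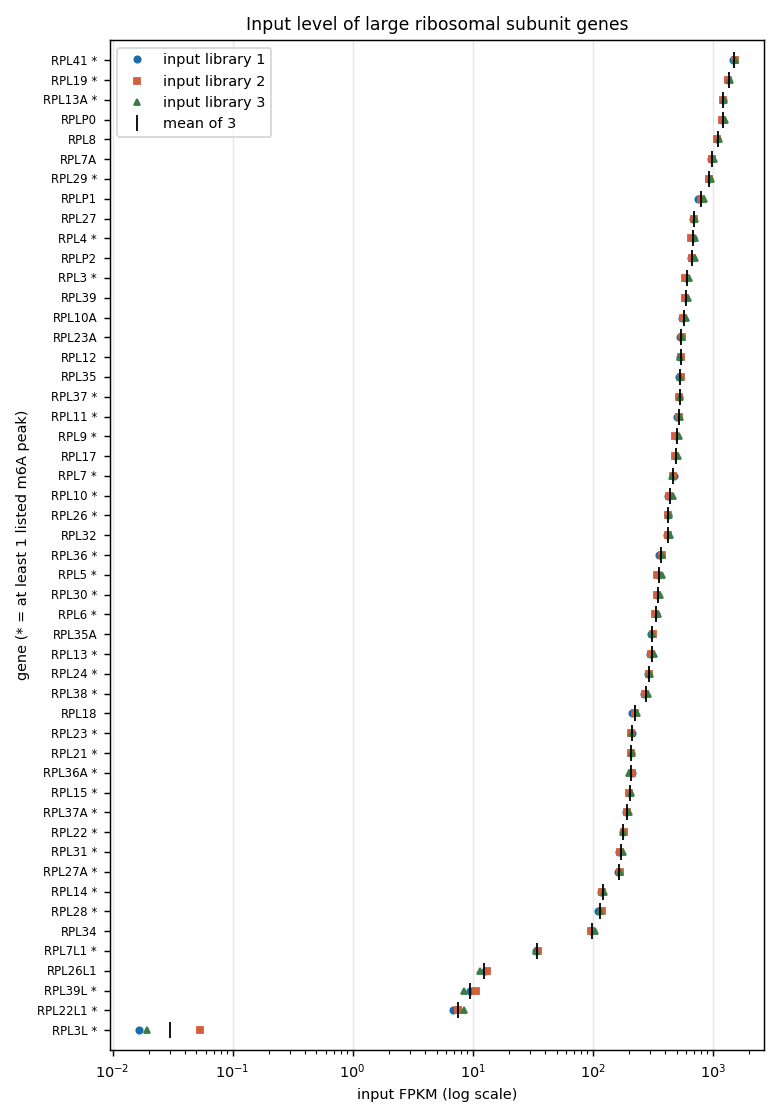
Input FPKM of 50 of the 51 large subunit genes on a log axis, with 1 symbol per input library and a bar for the mean of 3, and a star for genes with at least 1 listed peak. Most genes lie between 99.6 and 1506 FPKM, and the 5 paralogs, from 34.1 FPKM for RPL7L1 down to RPL3L, lie below all others.

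Of the 50 expressed members, 32 (64.0%) had a peak in the authors' list of IP over input for the combined treatment, against 79.7% of all expressed genes. The 108 other genes of 100 FPKM or more had one in 66.7%, the small subunit genes in 59.4%, and the 78 mitochondrial ribosomal protein genes, at a median of 9.44 FPKM, in 82.1%. The share among members was thus below that of all genes and near that of other abundant genes. The 18 members without a listed peak included all 3 stalk genes RPLP0, RPLP1 and RPLP2 with RPL12 at its base. Others were the abundant RPL7A and RPL8, the tunnel genes RPL17 and RPL39, the tunnel mouth genes RPL23A and RPL35, and the paralog RPL26L1. Their median level was 545 FPKM, against 325 FPKM for the 32 genes with a peak. Both ranges were wide, from 12.4 to 1225 FPKM without a peak and from 7.60 to 1506 FPKM with one. Of the 356 RPL pseudogenes, 81 had a listed peak. Whether reads of members were assigned to such copies was not tested, so a missing listed peak is no measure of absent m6A.

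The listed peaks of members were weak in enrichment. Over 69 peaks of 33 genes, RPL3L included, the median fold enrichment was 2.22 with quartiles of 1.71 and 4.26. Over all 42634 listed peaks it was 4.53 with quartiles of 2.63 and 7.45. A fold enrichment of 2 or more was reached by 41 of the 69 peaks (59.4%), against 87.0% of all listed peaks and 62.7% of the 142 peaks of other genes of 100 FPKM or more, whose median was 2.32. The members' peaks had lower p-values, with a median log10 p of -39.9, against -7.11 over all peaks and -49.5 over peaks of the other abundant genes. Fold enrichment is the authors' own value for each peak and comes with no replicate values or error. Highest enrichment and level ran weakly opposite over the 32 genes (Spearman's rho -0.30), as over all 10055 expressed genes with a peak (-0.17). Both are descriptions across genes of the same libraries, and genes are not replicates.

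Peaks of the large subunit genes were mostly labelled 3′ UTR, with 47 of 69 (68.1%), against 42.5% of all listed peaks. The labels do not follow position along every gene. RPL36 had a peak labelled 3′ UTR 3474 bases from the annotated gene start and one labelled 5′ UTR at 15315. The 3′ UTR share was 57.7% for small subunit genes, 56.4% for mitochondrial ribosomal protein genes and 33.8% for other abundant genes. The members' 5′ UTR peaks numbered 16 (23.2%) and their exon peaks 6 (8.70%), against 23.1% and 34.3% of all listed peaks. By region, the members' 6 exon peaks had a median enrichment of 2.93, their 5′ UTR peaks 2.34 and their 3′ UTR peaks 2.12. Peaks that joined several exon blocks numbered 21.

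The highest enrichments were in RPL36 and RPL22L1. At the highest peak of each, the authors' log10 p was -6.23 and -3.96, against a median of -39.9 over the members' peaks. RPL36 had 7 listed peaks, up to 13.5 in a 5′ UTR peak on chromosome 19 at 5680753 to 5684210, in coordinates of the deposited tables, whose build is not named. This peak began 5806 bases from the annotated gene start, and the files do not resolve which RPL36 transcript carries it. The RefSeq start window of RPL36, at 5690280 to 5690309 in GRCh38.p14, lies beyond the end of this peak on the plus strand. If the builds match, the peak is upstream of that start, and whether it belongs to the main RPL36 transcript is uncertain. A further RPL36 peak of 10.1 at 5691834 to 5693338 lay within the span of the oppositely transcribed LONP1, and one of 3.92 within that of MICOS13. RPL22L1 had 1 peak, of 13.0, in its 3′ UTR on chromosome 3 at 170864875 to 170865142. RPL31 reached 7.30 in a 3′ UTR peak on chromosome 2 at 101007617 to 101010992, within the span of TBC1D8, which runs on the other strand. RPL27A reached 6.74 in a 3′ UTR peak of 1735 bases on chromosome 11 at 8687945 to 8689679. RPL13 reached 5.69 in a 3′ UTR peak on chromosome 16 at 89562804 to 89563463. RPL30 followed with 5.66 in a 5′ UTR peak. In all, 10 of the 69 peaks fell within the span of another expressed gene, and 4 carried an exon of another gene.

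The abundant core messages had lower values. RPL13A had 3′ UTR peaks of 5.01, on chromosome 19 at 49491378 to 49492308, and of 1.67. RPL4 had 3′ UTR peaks of 4.19 and 1.65, and RPL41 had one of 4.06 in its 3′ UTR beside one of 2.03 in its 5′ UTR. RPL19 had 3.48 in a 3′ UTR peak over 3 exon blocks on chromosome 17 at 39202951 to 39204732. Both 5S ribonucleoprotein genes were near the bottom of the list, RPL5 with 1.77 in an exon on chromosome 1 at 92837507 to 92837777 and RPL11 with 1.32. RPL3 had a single exon peak of 1.77, on chromosome 22 at 39320089 to 39320329. Its RefSeq start window lies at 39319609 to 39319638 on the minus strand. If the builds match, this peak is upstream of that start, and whether it belongs to the main RPL3 transcript is uncertain. RPL10 had a peak of 1.47 in its 3′ UTR, its other 2 peaks being annotated to the exon of another gene. The lowest values were 1.15 for an RPL14 peak and 1.19 for RPL36A, at a peak that also lies within RPL36A-HNRNPH2.

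In some genes the peaks were strung along a long annotated gene body, and whether they belong to the main ribosomal protein transcript is uncertain, as it is for RPL31. RPL37A had 4 listed peaks, which began 1079, 20550, 30423 and 80175 bases from the annotated gene start, with fold enrichments of 1.69, 2.24, 3.23 and 4.66 in that order. RPL14 had 5 peaks labelled 3′ UTR, from 1.15 for the one nearest the start to 5.11 for the farthest. The RPL37 peaks, 5 in number, ran from 1.37 to 3.06, and some overlapped. The level along these extended transcripts is not resolved by 1 FPKM value per gene.

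**Figure D3:**
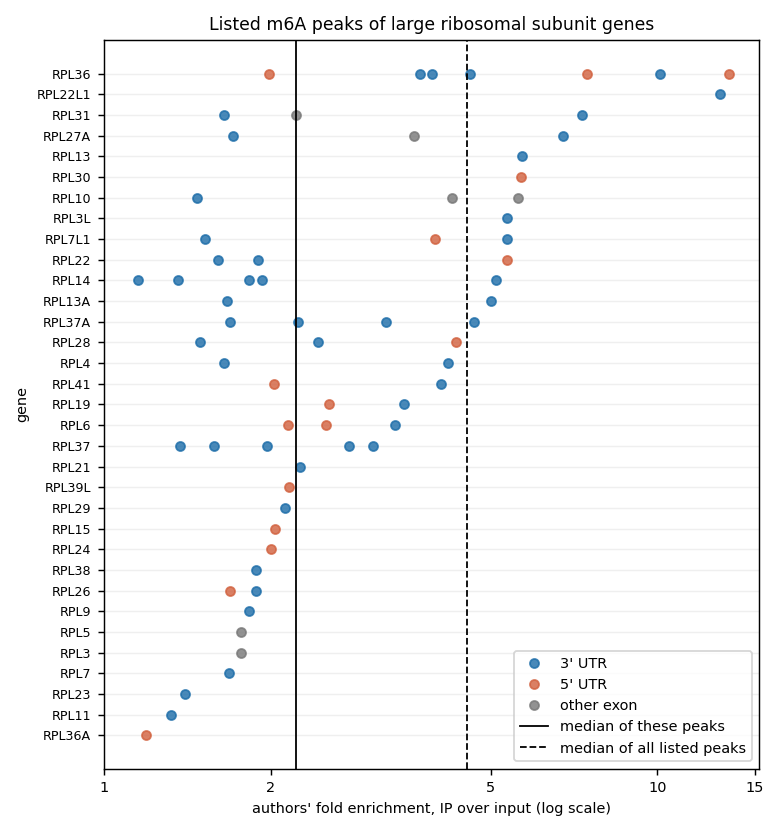
Authors' fold enrichment of IP over input, on a log axis, for the 69 listed peaks of 33 large subunit genes, 1 point per peak and coloured by region, with genes in order of their highest peak. The median of these peaks (2.22, solid line) lies below that of all listed peaks (4.53, dashed line), and RPL36, RPL22L1 and RPL31 reach the highest values.

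For the addition of echinomycin to CoCl2, the authors' deposited table tested 40 peaks in 23 of the 51 genes. Each gene was represented by its peak of lowest p, with a change called where the authors' FDR was under 0.05. On this count m6A enrichment was higher in 15 genes (65.2%), lower in 7 (30.4%), and did not pass in 1. Over all 11315 tested genes of the authors' deposited table, 22.6% were higher and 52.7% were lower. In the authors' deposited table the median over the 23 genes was a log2 fold change of 0.54, with quartiles of -0.17 and 0.74, against -0.50 over all tested genes. The 28 members without a tested peak, all stalk genes among them, have no value here.

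The members' split was near that of other abundant genes. Of 55 other tested genes of 100 FPKM or more in the authors' deposited table, 34 were higher (61.8%) and 19 lower (34.5%), with a median of 0.32. These were set apart by symbol only, and they still hold ribosomal genes under other names, such as FAU and RACK1. The share called higher moved with input level over the whole table. Members aside, 7.10% of tested genes under 1 FPKM were higher in the authors' deposited table, 23.4% of those from 1 to 10 FPKM, 36.0% from 10 to 30 FPKM, 48.8% from 30 to 100 FPKM and 61.1% from 100 FPKM. The shares called lower in the authors' deposited table over the same bands were 40.9%, 59.9%, 56.5%, 45.1% and 29.2%, so they did not move steadily, and more genes passed in either direction in the second band than in the first. Level and the log2 values of the authors' deposited table had a Spearman's rho of 0.19 over 10995 genes with both values and 0.13 over the 23 members. These are descriptions across genes that share libraries, and the part of level in the members' result was not tested. Of 13 tested small subunit genes in the authors' deposited table, 9 were higher and 0 lower, with 4 that did not pass and a median of 0.62. The 57 mitochondrial ribosomal protein genes of the authors' deposited table divided into 24 higher and 27 lower, with a median of -0.23.

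The sizes were small. In the authors' deposited table, 1 of the 23 genes (4.35%) passed with a change of 2-fold or more at its peak of lowest p, against 19.9% of all tested genes. That gene was RPL5, listed at 1.59 on the log2 scale of the authors' deposited table (log10 FDR -434, the lowest value in that table) at an exon peak on chromosome 1 from 92837657 to 92837777. Its listed fold enrichment after the combined treatment was 1.77. The table holds no replicate values, and the sources used here do not say whether its FDR covers replicate spread. RPL41, the member of highest input level, was called at -0.14 in the authors' deposited table. Whether small changes pass more often at high levels was not tested.

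**Figure D4:**
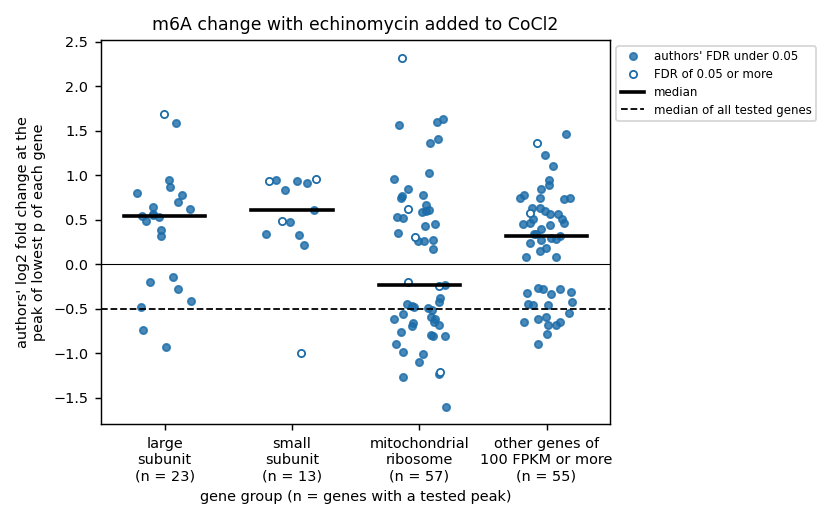
Authors' log2 fold change at the peak of lowest p, combined treatment over CoCl2, for tested genes of the large subunit, the small subunit, the mitochondrial ribosome and other genes of 100 FPKM or more, with filled points at an authors' FDR under 0.05. Medians (bars) are 0.54, 0.62, -0.23 and 0.32 in that order, against -0.50 for all tested genes (dashed line).

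Among genes that rose, RPL19 stood at 0.95 in its 3′ UTR in the authors' deposited table (log10 FDR -434) on chromosome 17 from 39203040 to 39204732. In the authors' deposited table RPL37 followed at 0.87 and RPL7, a core protein, at 0.81. RPL14 had 2 tested 3′ UTR peaks in the authors' deposited table, at 0.78 and 1.37, and both rose. RPL37A followed at 0.70, RPL6 at 0.65 and RPL38, known in mice for its part in translating Hox messages, at 0.62 in the authors' deposited table. RPL9 (0.56), RPL21 (0.54), RPL29 (0.53) and the tunnel mouth gene RPL26 (0.49) lay close together in the authors' deposited table. At the low end of the risen genes in the authors' deposited table stood RPL22 at 0.38, with another 3′ UTR peak at 0.38 and a 5′ UTR peak at 0.96, and RPL36 at 0.32. The paralog RPL39L rose by 0.56 in the authors' deposited table, at its 5′ UTR. RPL22L1 was listed at 1.69 in the authors' deposited table without passing (log10 FDR -0.84).

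Of the 7 genes that fell, the tunnel mouth gene RPL31 had the lowest value among them, -0.93 in the authors' deposited table. It was called at the peak that lies within the span of TBC1D8. RPL28 was at -0.73, RPL13 at -0.48, RPL7L1 at -0.41, RPL27A at -0.27, RPL13A at -0.20 and RPL41 at -0.14 in the authors' deposited table. All 7 were called at a 3′ UTR peak. In the authors' deposited table the median of all tested peaks was -0.43, and RPL7L1, RPL27A, RPL13A and RPL41 lay above it. On that centring 4 of these 7 move to the higher side, and RPL31, RPL28 and RPL13 stay lower. The authors' FDR belongs to the deposited values, so the centred sides were not tested. RPL7L1, at -0.41, lies close to the centre.

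At the peaks of lowest p, genes that fell had the higher enrichments. The listed fold enrichment of the overlapping peak ran from 2.44 to 7.30 for the 7 lower genes, with a median of 5.36. For the 15 higher genes it ran from 1.58 to 3.48, with a median of 1.88. Lower genes included RPL31 at 7.30, RPL27A at 6.74 and RPL13 at 5.69, and higher genes included RPL37 at 1.58 and RPL7 at 1.68. Over other peaks the order did not hold. The tested peak of highest enrichment, of RPL36 at 13.5, rose by 3.26 in the authors' deposited table, and its transcript is uncertain, as given above. A longer listed 5′ UTR peak of RPL22, at 5.36, was overlapped by a tested peak that rose by 0.96 in the authors' deposited table. Another tested peak over the same listed peak, at 0.30, did not pass (log10 FDR -0.59). Peaks of RPL37 at 1.97 to 3.06 fell in the authors' deposited table. The enrichment list and the fold change share the libraries of the combined treatment, so the values are set side by side and are not independent. All 40 tested peaks overlapped a listed peak of the same gene by at least 1 base. The share over all tested peaks is not given here, so this is not read as a trait of the members.

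Counted by peak, 22 of the 40 rose (55.0%), 12 fell (30.0%) and 6 did not pass in the authors' deposited table. Over all 19983 tested peaks of the authors' deposited table, 23.1% rose and 45.8% fell. Of the members' 11 tested peaks in 5′ UTRs in the authors' deposited table, 7 rose, 0 fell and 4 did not pass, with a median of 0.96. Over all tested 5′ UTR peaks of the authors' deposited table, 28.1% rose and 43.3% fell. Of the members' 28 tested 3′ UTR peaks in the authors' deposited table, 14 rose, 12 fell and 2 did not pass, against 22.9% and 53.7% of all tested 3′ UTR peaks. The difference between the 2 regions was not tested, since peaks of 1 gene share its reads. The regions are labels, which do not follow position along every gene, as given above.

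In 4 of the 23 tested members peaks changed both ways, against 1148 of 11315 genes tested in the authors' deposited table. Only genes with more than 1 tested peak can do so. In each of the 4, the higher peaks lay on average nearer the 5′ end than the lower ones. RPL41 rose by 0.15 in the authors' deposited table at its 5′ UTR peak on chromosome 12 from 56116740 to 56116919 and fell by 0.14 at its 3′ UTR peak from 56117129 to 56117847. RPL7L1 was at 0.44 in its 5′ UTR and -0.41 in its 3′ UTR in the authors' deposited table. RPL37 rose by 0.87 in the authors' deposited table at the peak nearest its start, on chromosome 5 from 40832461 to 40834066. Its 3 peaks farther along fell in the authors' deposited table, to -0.87, -1.15 and -0.11. The spans of the RPL37 peaks at 0.87 and -0.87 overlapped, as did those at -0.87 and -1.15. RPL36 rose at 2 peaks labelled 5′ UTR in the authors' deposited table (3.26 and 0.32) and fell at 2 labelled 3′ UTR (-0.72 and -0.58), the second of these within LONP1. Its directions alternated along the gene, since the peak at -0.72 began 12978 bases from the annotated gene start and that at 0.32 began at 15315. If the builds match, the peaks at 3.26 and -0.72 lie before the RefSeq start window given above. RPL28 also had its higher value nearer the 5′ end in the authors' deposited table, with 1.57 at its 5′ UTR and -0.73 at a 3′ UTR peak. The first of these did not pass (log10 FDR -1.06). On the same untested centring, 5 of the 12 lower peaks in the authors' deposited table move to the higher side. Among them are those of RPL41 and RPL7L1 and 1 of RPL37, so RPL36 and RPL37 keep peaks on both sides. Among all 1148 genes of the authors' deposited table with peaks changed both ways, the higher peaks lay nearer the 5′ end in 59.2%.

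**Figure D5:**
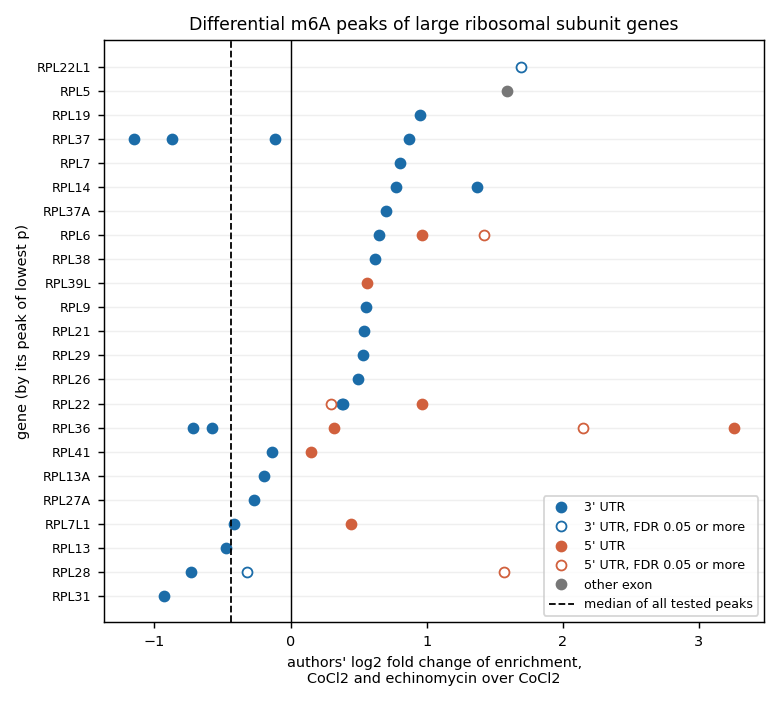
Authors' log2 fold change of enrichment, combined treatment over CoCl2, for the 40 tested peaks of 23 large subunit genes, coloured by region and filled at an authors' FDR under 0.05, with genes in order of their peak of lowest p. No 5′ UTR peak lies below 0, and RPL36, RPL37, RPL41 and RPL7L1 have filled points on both sides of 0.

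Genes that assemble the large subunit were described for comparison. All 30 listed 60S assembly factor genes, RPL7L1 among them, were expressed, from 1.61 to 75.8 FPKM, and 25 (83.3%) had a listed peak, against 79.7% of all expressed genes, with a median fold enrichment of 2.75 over their peaks. Of 21 tested in the authors' deposited table, 11 rose, 7 fell and 3 did not pass, with a median of 0.55. Over all tested genes of the authors' deposited table, 22.6% rose and 52.7% fell. NSA2, a factor of the pre-60S particle, was at 1.07 in an exon in the authors' deposited table (log10 FDR -118). The nucleolar GTPase gene GNL3 was at 0.89, GTPBP4, another nucleolar GTPase, at 0.78, and RPL7L1 at -0.41 in the authors' deposited table.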

How the data were processed

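The 6 libraries were grouped by their titles, and the input columns were matched to titles. Another 6 per-sample FPKM columns were not used. The submitters' processing notes name HISAT2, fastp, ChIPseeker and HOMER without roles or versions. Peak caller, FPKM tool, genome build and annotation: not given in the sources used here.

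The authors deposited FPKM per gene and input library. Their peak list gives fold enrichment as a ratio of IP over input, a p-value, and log10 values read as a score because some run to minus infinity. Their differential list gives a log2 fold change, a p-value and a log10 FDR (score) per peak, deposited without replicate values. No member's line was repeated. The fold change direction was checked: 99.4% of the 995 peaks at a log2 fold change of 2 or more overlapped a listed peak, against 44.7% of 985 peaks at -2 or less.

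The tested peak of lowest p stood for its gene. No test between treatments was run, since libraries of CoCl2 alone are not analysed here, and counts are set beside all genes. Members, lists and alternatives were chosen with earlier results of these data known, and the comparison with other genes of 100 FPKM or more and the level bands after values were seen. By rule, any member could be named, with up to 4 assembly factors of lowest p and copies that share reads, and 1 member counted in the totals is not reported by name here. Counting functions were tested on simulated data. Python 3.11.15 with numpy 2.4.6, pandas 2.3.3 and matplotlib 3.10.9 was used.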

Additional observations from a re-analysis of the deposited data

How the results depend on the processing

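No paired analysis was possible because no per-sample values of the IP libraries were used and the inputs form a single group. With a 2-fold limit added to the FDR, the higher and lower member genes of the authors' deposited table came to 1 and 0, and the higher and lower peaks to 3 and 1. With sides taken after centring on the median of all tested peaks, they were 19 and 3 genes and 27 and 7 peaks. This setting was added after seeing the data, and its sides carry no FDR of their own. As deposited they were 15 and 7 genes and 22 and 12 peaks. The median log2 fold change of 0.54 was 0.56 for each gene's peak of greatest absolute change, 0.51 with each peak counted, 0.97 after centring on the median of all tested peaks (-0.43), and 0.55 without peaks in the span of another expressed gene, a setting chosen after seeing the data. Median fold enrichment, 2.22, was 2.23 for peaks at an FDR under 0.05, 3.48 for the highest peak of each gene, 2.15 without peaks on another gene's exon and 2.16 without peaks in another expressed gene's span. The spread between inputs, a median SD of 0.0423 in log2(FPKM + 1), was 0.0425 with a pseudocount of 0.1 and 0.0410 with no filter, and 0.0191 to 0.0512 with 1 replicate left out, the lowest without replicate 3. The sign of RPL28, RPL37, RPL41 and RPL7L1 in the authors' deposited table turned when the peak of greatest absolute change stood for the gene (1.57, -1.15, 0.15 and 0.44). The cause of these shifts was not tested. The other counts computed under alternatives stayed within 1.5 times. Depth is unknown, so what it limits could not be given.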
